A study of Arabidopsis thaliana with 12 samples.

Results

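Plants of the Arabidopsis thaliana line Mlp37347 were set directly against plants of the line Mlp124499. Both lines were stable Col-0 transformants that carried green fluorescent protein (GFP) fused to a candidate secreted effector from Melampsora larici-populina, the rust fungus of poplar, effector Mlp37347 in the first and Mlp124499 in the second, and the labels list BAR, a herbicide-resistance marker, for both. All 4 Mlp37347 and all 4 Mlp124499 libraries were taken, 8 of the 12 libraries of the series, and the GFP-only Control entered neither group. The comparison covered 18512 of 32833 counted loci, those that passed a filter on low counts. Each library held RNA from pooled aerial tissue of plants grown on soil, which were kept at 22 °C with 16 h of daily light and harvested at 15 days after germination. The sources used here name neither the promoter of the fusion genes nor the number of independent transformants behind each line, and the fungal transcripts themselves are not among the counted loci. A difference between the lines can therefore belong to the effectors or to anything else that differs between 2 transgenic lines, which cannot be told apart.

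Rust fungi deliver secreted effector proteins into living leaf cells, where effectors are known to act on immunity and metabolism of the host. Pathways that set growth in young rosettes are used below as a frame. Auxin is made by YUCCA enzymes and switches on the small SAUR growth genes, the PIF transcription factors do the same in shade and warmth, and the circadian clock gates both, as well as the CBF regulators that turn on cold-protective COR genes. Because clock transcripts cycle through the day, their level in a library depends on the hour of harvest, which the labels do not give.

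Depth did not separate the lines, but libraries within a line differed. Total counts ranged between 12368262 and 24483245 per Mlp37347 library and between 10813288 and 14733894 per Mlp124499 library. Mlp37347 1, 2 and 3 were close to each other, with a chi-square per degree of freedom of 2.82 to 6.27 between pairs, whereas Mlp37347 4 stood at 154 to 208 from them. Mlp124499 1 and 2 were at 6.94, and the other pairs of that line at 40.6 to 132. Of 17941 genes with at least 1 CPM on average (counts scaled to library size, with TMM factors), 28.3% in Mlp37347 4 and 16.4% in Mlp124499 4 lay more than 2-fold from the mean of the other 3 libraries of their line. Mlp37347 4 also had the mate inner distance closest to the other line, 70 bp, against 110 to 115 bp in Mlp37347 1 to 3 and 60 to 65 bp in Mlp124499. The labels do not say that the libraries of a line came from separate batches of plants, so the p-values rest on the spread among these samples, and some of that spread may be technical. The 4 leaf markers summed to 49700 to 70400 CPM in Mlp37347 and 43000 to 52900 CPM in Mlp124499. The 8 root markers summed to 295 to 404 CPM in Mlp37347 and 189 to 371 CPM in Mlp124499. Nearly all of this was PYK10, with 290 to 403 CPM in Mlp37347 and 188 to 368 CPM in Mlp124499. No other root marker was above 3.62 CPM in any library. The 6 flower markers were at 1.42 to 2.66 CPM in Mlp37347 and 1.72 to 3.94 CPM in Mlp124499, and the 3 seed markers at 0.0884 to 0.294 CPM in Mlp37347 and 0.0757 to 12.4 CPM in Mlp124499. Of the 12.4 CPM, found in Mlp124499 4, the seed gene CRA1 held 11.6 CPM. No marker was at 0 in all 8 libraries.

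At an adjusted p under 0.05, 51 genes were higher in Mlp37347 than in Mlp124499 (0.275% of the genes tested) and 105 were lower (0.567%). In all 156 the 4 values of Mlp37347 and the 4 of Mlp124499 did not overlap. Over all genes tested, the values did not overlap for 926 higher genes (5%) and 1122 lower genes (6.06%), and the median log2 fold change was 0. An unadjusted p under 0.05 was reached by 2916 genes (15.8%), of which 1324 were higher (7.15%) and 1592 lower (8.6%). DESeq2 called 509 higher (2.75%) and 576 lower (3.11%). Genes lower in Mlp37347 included regulators and effectors of growth, a cold-protective gene and several transcription factors. Genes higher in Mlp37347 included membrane transporters, cell wall proteins, iron-response genes and 2 adjacent immune receptor genes. Genes of such kinds were also called lower, among them the transporter gene AT1G04570, the cell wall genes XTH17 and XTH8 and the iron-storage gene AT1G76800.

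These counts depended on which libraries were in the fit. Leaving out Mlp37347 4 gave 1291 higher genes (6.9%) and 1473 lower genes (7.88%), and leaving out Mlp124499 4 gave 212 and 254. Without both of them the test called 3479 higher (18.8%) and 3406 lower (18.4%). Both were seen in these data to lie farthest from the others of their line. The p-values of the fit without them therefore rest on the smaller spread among the libraries kept, here and below. Leaving out Mlp37347 1, 2 or 3 left 3 higher genes each time, with 8, 6 and 6 lower genes. Leaving out Mlp124499 1, 2 or 3 left 3, 3 and 12 higher genes, with 14, 11 and 38 lower genes. When Mlp37347 1 to 3 were summed into 1 sample and Mlp124499 1 and 2 into another, 0 genes passed in edgeR in either direction and 744 had an unadjusted p under 0.05. When the mate inner distance entered as a covariate, 949 genes were called higher and 592 lower, and 71 of the 156 calls remained. Mlp37347 4 was the 1 library of its line with a short mate inner distance, and as the sole Mlp37347 library against the 4 Mlp124499 libraries it gave 6 higher genes and 1 lower gene, with 1 of the 156 calls among them. In the rest of the comparison line and mate inner distance cannot be told apart. Because none of the 156 overlapped between the lines, leaving out libraries could not turn their direction. Of the 156 calls, 8 held in all 8 fits that left out 1 library and 109 held in at most 2 of them.

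**Figure D1:**
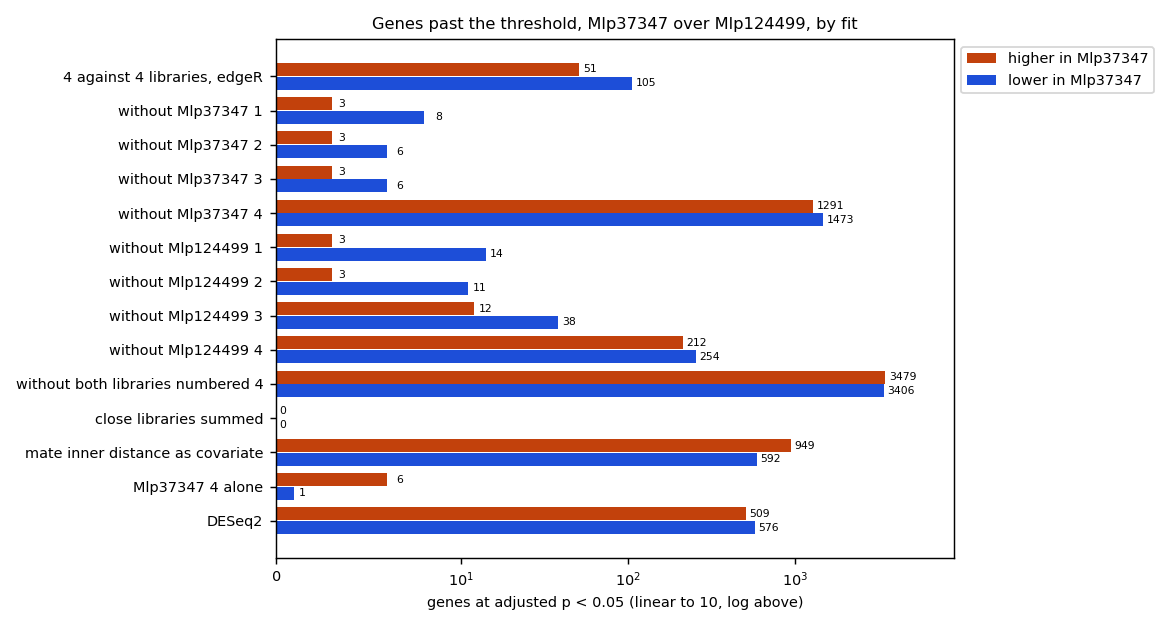
Number of genes at an adjusted p under 0.05 in the fit of all 8 libraries and 13 of its alternatives (rows), higher (orange) or lower (blue) in Mlp37347 than in Mlp124499, on an axis that is linear to 10 and logarithmic above. The fits with voom weights and the replicate block are not drawn. Among the fits drawn, the 2 without Mlp37347 4 hold the longest bars, and the fit with the close libraries summed gives 0.

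The 8 calls that held in every such fit were 3 higher and 5 lower genes. Their highest edgeR adjusted p in those fits was 0.0181 for AT4G16563 and AT1G75945. The others came just under the threshold, at 0.0473 to 0.0476. AT4G16563, an aspartyl protease family gene, had 18.1, 15.2, 23.2 and 18.2 CPM in Mlp37347 1 to 4, against 2.84, 2.33, 2.88 and 2.74 CPM in Mlp124499 1 to 4. All Mlp37347 values lay above all Mlp124499 values, and the log2 fold change was 2.79 ± 0.20 (SE; edgeR adjusted p = 0.00133). It was 2.84 without both libraries numbered 4 and 2.76 for Mlp37347 4 alone. AT2G16660 and AT5G14120 both encode proteins of the major facilitator superfamily, a class of membrane transporters. AT2G16660 had 159, 145, 143 and 78.7 CPM in Mlp37347 1 to 4, against 21.5, 22.5, 16.8 and 23.6 CPM in Mlp124499 1 to 4, a log2 fold change of 2.64 ± 0.26 (adjusted p = 0.0052). Its lowest Mlp37347 library was number 4, still above every Mlp124499 library. AT5G14120 averaged 667 ± 112 CPM in Mlp37347 and 164 ± 14 CPM in Mlp124499 (SD, n = 4 each), a log2 fold change of 2.03 ± 0.20 (edgeR adjusted p = 0.0052); 2 annotated genes overlap it on the other strand.

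Among the 5 lower genes of that kind, MYB47 (AT1G18710), a MYB transcription factor gene, had 3.54, 4.56, 4.44 and 4.42 CPM in Mlp37347 1 to 4, against 23.8, 21.6, 36.4 and 18.8 CPM in Mlp124499 1 to 4. The values of each line were closely spaced and did not overlap (log2 fold change -2.57 ± 0.24, adjusted p = 0.0052). AT4G09500, a UDP-glycosyltransferase gene, had a log2 fold change of -2.11 ± 0.20, and AT5G01790, which the annotation leaves uncharacterized, had -2.05 ± 0.19. AT1G27565, also uncharacterized, had 0.362, 0.834, 0.396 and 0.265 CPM in Mlp37347 1 to 4, against 6.12, 5.87, 5.45 and 7.58 CPM in Mlp124499 1 to 4 (log2 fold change -3.69 ± 0.36, adjusted p = 0.0052). Its Mlp37347 values were all under 1 CPM.

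The fifth, AT1G75945, was close to absent from Mlp37347. This uncharacterized protein-coding locus lies at chr1:28515245-28515916 on the minus strand (TAIR10.1). It had 1, 0, 1 and 0 counts in Mlp37347 1 to 4, against 133, 202, 81 and 213 counts in Mlp124499 1 to 4. Summed over the libraries of a line and divided by total counts, the level in Mlp124499 was 443 times that in Mlp37347, with a 95% counting interval of 122 to 3660 that covers counting error only (edgeR adjusted p = 0.00133). Its nearest tested neighbours did not pass the test. SKP1, a ubiquitin ligase subunit gene 602 bases away, had a log2 fold change of -0.17 ± 0.24 (adjusted p = 0.784), and AT1G75900, 13990 bases away on the other side, had -0.14 ± 0.40 (adjusted p = 0.906). A second locus was counted in Mlp124499 alone. AT2G01422, a non-coding RNA at chr2:183940-184734 on the plus strand (TAIR10.1), had 0 counts in all 4 Mlp37347 libraries, against 42, 50, 14 and 194 counts in Mlp124499 1 to 4. Set against a floor of 3 counts over the Mlp37347 libraries, it was at least 131-fold lower in Mlp37347 with TMM-scaled libraries and at least 141-fold lower by total counts, for counting error only. Mlp124499 4 held 194 of the 300 counts, and without it the bounds were 66.2 and 70.2; these settings were chosen after the data were seen. The edgeR test gave an adjusted p of 0.0523, outside the threshold. PIN4, an auxin efflux carrier gene 175 bases away, averaged 101 ± 10.3 CPM in Mlp37347 and 151 ± 24.7 CPM in Mlp124499 (SD, n = 4 each), a log2 fold change of -0.59 ± 0.19 (adjusted p = 0.182). No locus was counted in this way in Mlp37347 alone.

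**Figure D2:**
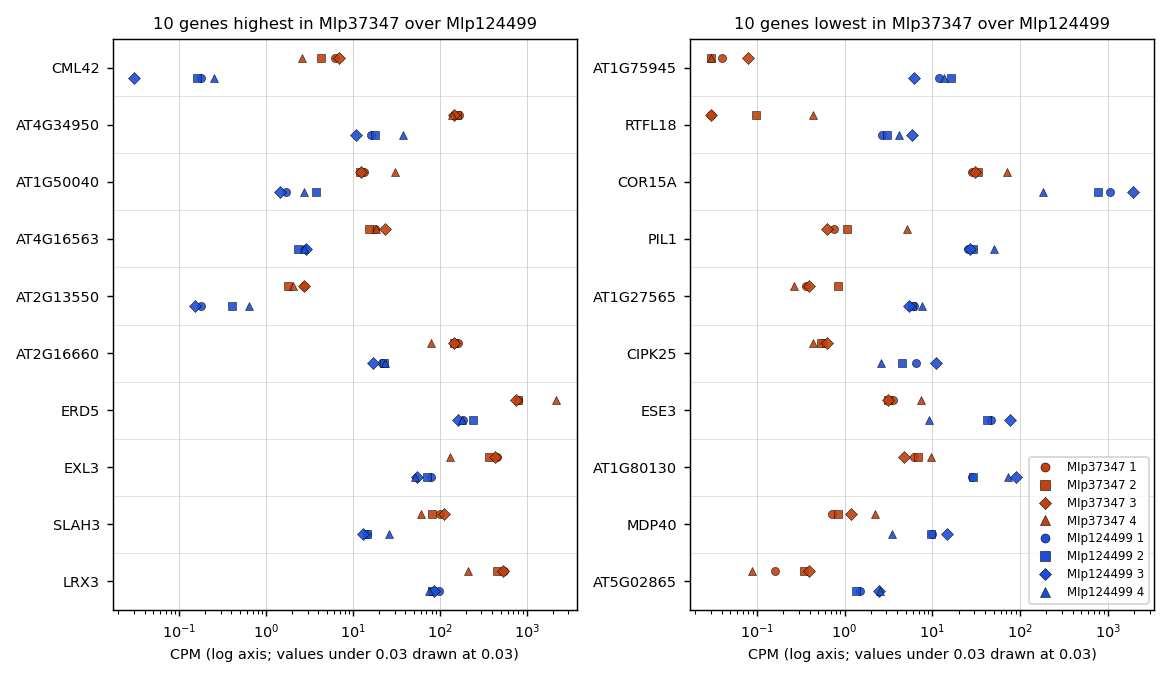
CPM on a log axis of the 10 called genes with the highest (left) and the 10 with the lowest (right) log2 fold change, one symbol per library, orange for Mlp37347 and blue for Mlp124499. No gene has overlapping values between the lines, and the Mlp37347 4 triangle often lies apart from the other 3 orange symbols.

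CML42 (AT4G20780), a calmodulin-like calcium sensor with roles in trichome branching and in herbivore defence, had the highest log2 fold change of the called genes with at least 1 CPM. It had 6.20, 4.32, 6.82 and 2.56 CPM in Mlp37347 1 to 4, against 0.177, 0.161, 0 and 0.255 CPM in Mlp124499 1 to 4. The Mlp124499 values were near the limit of counting, and the log2 fold change was 4.97 ± 0.59 (adjusted p = 0.013). AT4G34950, another major facilitator gene, had 165, 158, 144 and 138 CPM in Mlp37347 1 to 4, against 16.1, 17.8, 10.8 and 37.5 CPM in Mlp124499 1 to 4. Mlp124499 4 was the highest of its line and still far under every Mlp37347 library (log2 fold change 2.88 ± 0.37, adjusted p = 0.0157). Its tested neighbours AT4G34920 and AT4G34960 had -0.37 and 0.11. SLAH3, a slow anion channel that conducts nitrate, had 99.9, 80.8, 111 and 60.0 CPM in Mlp37347 1 to 4, against 14.4, 14.6, 12.9 and 25.9 CPM in Mlp124499 1 to 4 (log2 fold change 2.37 ± 0.29, adjusted p = 0.0154).

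Cell wall and secreted proteins were also among the highest genes. LRX3, a leucine-rich repeat extensin of the cell wall, had 547, 454, 535 and 211 CPM in Mlp37347 1 to 4, against 97.6, 80.7, 85.3 and 75.7 CPM in Mlp124499 1 to 4. Mlp37347 4 was the lowest library of its line but lay above all of Mlp124499 (log2 fold change 2.36 ± 0.31, adjusted p = 0.0157). EXL3 (AT5G51550), an EXORDIUM-like secreted protein gene, had 454, 364, 432 and 132 CPM in Mlp37347 1 to 4, against 78.3, 71.4, 53.8 and 51.1 CPM in Mlp124499 1 to 4 (log2 fold change 2.44 ± 0.38, adjusted p = 0.0258). For EXL3 the value was 2.66 without both libraries numbered 4 and 1.06 for Mlp37347 4 alone. SHV3, a GPI-anchored wall protein gene, CSLD2, a cellulose synthase-like gene, and XTR6, a xyloglucan-modifying enzyme gene, had 1.72, 0.95 and 1.49, named after their values were seen. ERD5 (AT3G30775), the proline dehydrogenase that breaks down proline, had 797, 781, 744 and 2166 CPM in Mlp37347 1 to 4, against 186, 239, 160.0 and 178 CPM in Mlp124499 1 to 4. The library Mlp37347 4 was the highest, and without both libraries numbered 4 the log2 fold change was 2.03, against 2.56 ± 0.39 over all 8 libraries (adjusted p = 0.0256). AT1G50040, a DUF1005 family gene, had 2.80, and the uncharacterized AT2G13550 had 2.69; a gene on the other strand overlaps AT2G13550.

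Of these 10 highest genes, AT4G16563 and AT2G16660 held in all 8 fits without 1 library. The other 8 fell outside the threshold when Mlp37347 1, 2 or 3 or Mlp124499 1 or 2 was left out, and 6 of them also without Mlp124499 3. Their highest adjusted p was 0.0634 for CML42, 0.0736 for AT4G34950, 0.0714 for SLAH3, 0.0806 for LRX3, 0.107 for EXL3, 0.0938 for ERD5, 0.0938 for AT1G50040 and 0.142 for AT2G13550.

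Families could be followed through their annotation, and these were chosen after the values were seen. Over all genes tested, 0.275% were called higher and 0.567% lower. Of 94 tested major facilitator genes, 5 were higher and 1 was lower, with a median log2 fold change of 0.23. Besides the 3 described, AT1G22550 (1.70) and ERDL6 (1.51), a vacuolar sugar transporter gene, were higher, and AT1G04570 (-2.65) was lower. Of 66 TIR-NBS-LRR genes, a class of intracellular immune receptors, 2 were higher and 0 lower, with a median of 0.14. Values did not overlap between the lines for 9 higher and 4 lower genes of the 66, against 5% and 6.06% of all genes. The 2 called were the adjacent loci AT4G19520 and AT4G19530. AT4G19530 had 199, 162, 194 and 248 CPM in Mlp37347 1 to 4, against 82.2, 84.4, 80.4 and 57.4 CPM in Mlp124499 1 to 4 (log2 fold change 1.40 ± 0.21, adjusted p = 0.0243). AT4G19520 had 1.36 ± 0.19 (adjusted p = 0.0188). The reads of neighbouring receptor copies can be shared, and the sources used here do not say how reads with several alignments were counted. Both calls were lost without any 1 of Mlp37347 1 to 3 and Mlp124499 1 to 3, with adjusted p up to 0.107.

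Auxin genes passed the test in 1 direction. Of the 29 listed auxin genes tested, 6 fell and 0 rose, against 0.567% and 0.275% of all genes tested. A negative log2 fold change was held by 28, with a median of -1.36 against 0 over all genes. At an unadjusted p under 0.05, 20 were lower and 0 higher, against 8.6% and 7.15% of all genes. DESeq2 called 18 lower and 0 higher, against 3.11% and 2.75%. The values did not overlap for 13 of the 29, all lower, against 6.06% of all genes. YUC9 (AT1G04180), an auxin-synthesis enzyme gene, had 1.93, 2.50, 1.27 and 4.33 CPM in Mlp37347 1 to 4, against 9.75, 9.08, 14.2 and 16.4 CPM in Mlp124499 1 to 4. The log2 fold change was -2.32 ± 0.38 (adjusted p = 0.03). The other 5 edgeR calls were SAUR genes, small growth genes that auxin induces, which lie together on chromosome 5. The SAUR gene AT5G18030 had 5.63, 5.64, 4.2 and 7.69 CPM in Mlp37347 1 to 4, against 21.3, 23.1, 21.8 and 43.9 CPM in Mlp124499 1 to 4 (log2 fold change -2.25 ± 0.30, adjusted p = 0.0164). SAUR24 had 3.26, 2.70, 3.88 and 6.72 CPM in Mlp37347 1 to 4, against 19.2, 21.3, 12.9 and 40.5 CPM in Mlp124499 1 to 4 (log2 fold change -2.52 ± 0.41, adjusted p = 0.03). In both genes Mlp124499 4 was the highest library and Mlp37347 4 the highest of its own line, without overlap. SAUR20, SAUR22 and SAUR23, named after their values were seen, had -2.32, -2.71 and -2.13. These copies are near-identical, so the counting can divide reads among them and the values of single copies are uncertain. The 5 SAUR calls may thus not be independent of each other, and YUC9 was the only call of the list outside this cluster.

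The upstream sequences of SAUR22 and SAUR24 show this kinship and are given because 5 genes of the cluster were called lower. Each line holds the 250 bases before the annotated transcript start, read from the TAIR10.1 genome, 5′ to 3′ on the strand of the gene, and capitals mark the longest run the pair shares, 23 bases. The window of SAUR22 is chr5:5975088-5975337, minus strand, and that of SAUR24 is chr5:5983433-5983682, plus strand.
SAUR22: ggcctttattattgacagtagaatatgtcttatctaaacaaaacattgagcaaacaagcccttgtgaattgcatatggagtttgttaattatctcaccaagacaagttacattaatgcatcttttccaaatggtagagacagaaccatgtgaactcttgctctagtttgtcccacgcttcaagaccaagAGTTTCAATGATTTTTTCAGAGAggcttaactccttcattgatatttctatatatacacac
SAUR24: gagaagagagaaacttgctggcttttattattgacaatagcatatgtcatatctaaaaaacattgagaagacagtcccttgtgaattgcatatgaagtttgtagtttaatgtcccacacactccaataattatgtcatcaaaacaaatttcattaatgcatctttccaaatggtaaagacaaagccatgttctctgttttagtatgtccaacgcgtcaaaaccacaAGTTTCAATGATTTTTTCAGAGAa
Neither window holds any of the 5 motifs searched here, which says only that those letters are not in these windows.

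**Figure D3:**
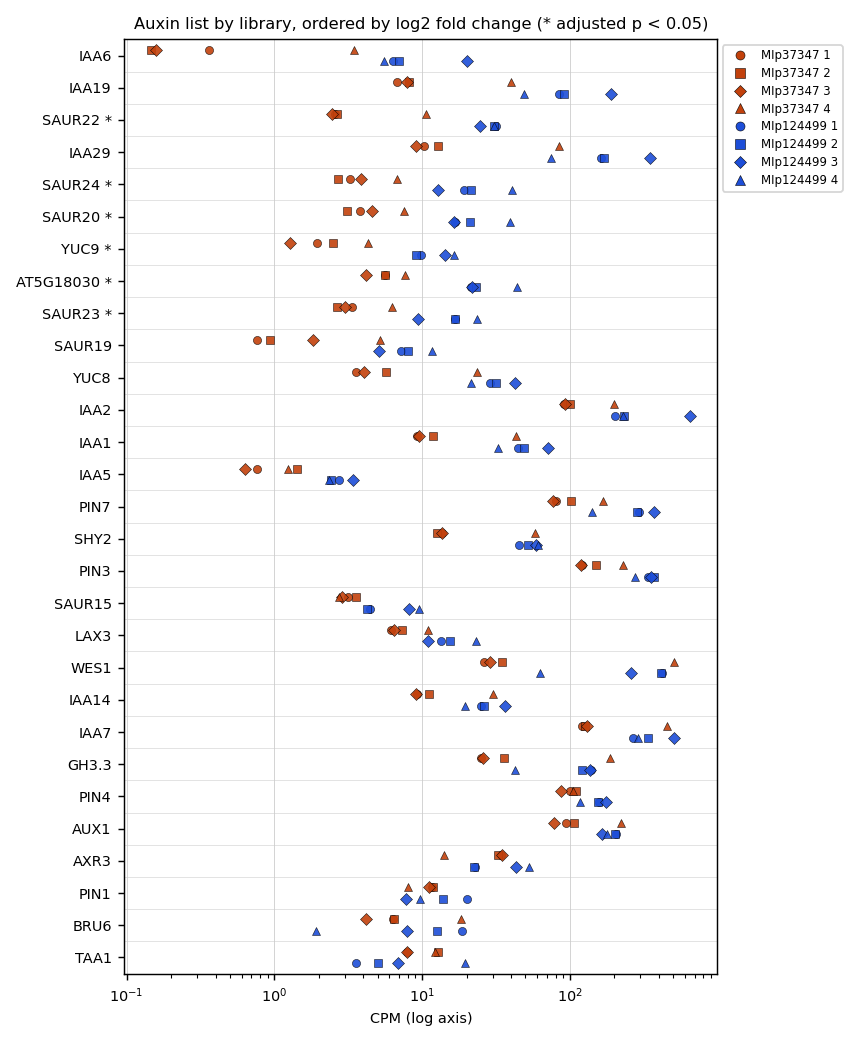
CPM on a log axis of the 29 tested auxin-list genes, ordered by log2 fold change, one symbol per library, orange for Mlp37347 and blue for Mlp124499. An asterisk marks the 6 genes past the threshold, in which no orange symbol reaches the blue ones; Mlp37347 4 is the orange triangle.

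The auxin result differed by library. On the mean log2 CPM of the list, relative to its mean over the 8 libraries, Mlp37347 1 to 4 stood at -1.16, -1.0, -1.21 and 0.26, and Mlp124499 1 to 4 at 0.73, 0.78, 0.96 and 0.64. When both libraries numbered 4 were left out, 25 of the 29 genes fell and 1 rose, with a median of -1.93. In that fit 18.4% of all genes fell and 18.8% rose. With Mlp37347 4 as the sole library of its line, 0 passed and the median was -0.67. Leaving out Mlp37347 1, 2 or 3 or Mlp124499 1 or 2 left 0 called in edgeR, leaving out Mlp124499 3 left 2, and leaving out Mlp124499 4 left 7. Leaving out Mlp37347 4 gave 23 lower genes, against 7.88% of all genes in that fit.

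Further growth regulators were chosen after their values were seen. Over all genes tested, 0.567% were called lower and 0.275% higher. Of 45 tested genes annotated as SAUR-like, 9 were lower and 0 higher, but 5 of the 9 are the auxin-list calls just given. Of the 38 outside that list, 4 were lower and 0 higher (median -0.83). Of 4 tested gibberellin 20- and 3-oxidases, which make the growth hormone gibberellin, 2 were lower and 0 higher. GA3OX1 averaged 4.51 ± 1.36 CPM in Mlp37347 and 13.5 ± 2.39 CPM in Mlp124499 (SD, n = 4 each; log2 fold change -1.57 ± 0.27, edgeR adjusted p = 0.0364), and GA20OX3 had -2.21 ± 0.39. Of the 5 tested YUCCA genes outside the list 1 was lower, YUC2 (-1.39). The growth-promoting helix-loop-helix genes PRE5 and BEE1, the second induced by brassinosteroid, had -2.53 and -1.66. Of 21 tested xyloglucan endotransglycosylase genes, which remodel the cell wall, 2 were lower, XTH17 (-2.60) and XTH8 (-1.14), and 1 was higher, XTR6. All of these calls were lost when Mlp37347 1, 2 or 3 was left out, with adjusted p up to 0.186 for GA20OX3.

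The shade-response genes PIL1, HFR1 and ATHB2 had all Mlp37347 values under all Mlp124499 values, and PIL1 passed the test. They are 3 of the 9 genes tested on their list, against 6.06% of all genes. PIL1 (AT2G46970), a basic helix-loop-helix factor that shade induces, had 0.765, 1.08, 0.634 and 5.21 CPM in Mlp37347 1 to 4, against 25.3, 28.9, 27.0 and 50.6 CPM in Mlp124499 1 to 4. Mlp37347 4 was the highest of its line (log2 fold change -4.17 ± 0.67, adjusted p = 0.0288). HFR1, which restrains the shade response, had 6.64, 7.55, 6.34 and 37.7 CPM in Mlp37347 1 to 4, against 70.2, 82.7, 155 and 42.2 CPM in Mlp124499 1 to 4, and its log2 fold change of -2.60 ± 0.68 did not pass (adjusted p = 0.12). ATHB2, a shade-induced homeodomain factor gene, had -2.26 ± 0.62 (adjusted p = 0.139). Of the 9 PIF and shade genes tested, 1 fell and 0 rose (median -0.81), against 0.567% and 0.275% of all genes. The fit without both libraries numbered 4 gave 6 lower and 1 higher, against 18.4% and 18.8% of all genes. The fit without Mlp37347 4 gave 5 lower and 1 higher, against 7.88% and 6.9% of all genes. The PIL1 call was lost without any 1 of Mlp37347 1 to 3 and Mlp124499 1 to 3, with adjusted p up to 0.125. MDP40, a microtubule-destabilizing protein gene that acts in hypocotyl elongation, had 0.724, 0.834, 1.19 and 2.21 CPM in Mlp37347 1 to 4, against 9.93, 9.65, 14.7 and 3.5 CPM in Mlp124499 1 to 4 (log2 fold change -2.97 ± 0.50, adjusted p = 0.0347). Its values did not overlap between the lines.

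The remaining genes of lowest fold change include a peptide gene, a kinase gene and a transcription factor gene. RTFL18, a small growth-regulating peptide of the ROTUNDIFOLIA family, had 0, 0.0981, 0 and 0.442 CPM in Mlp37347 1 to 4, against 2.66, 3.05, 5.91 and 4.14 CPM in Mlp124499 1 to 4. All but Mlp37347 4 were under 0.1 CPM in that line, so the log2 fold change of -5.07 ± 0.81 rests on few counts (adjusted p = 0.0287). CIPK25, a kinase that works with calcineurin B-like calcium sensors, had 0.563, 0.540, 0.634 and 0.442 CPM in Mlp37347 1 to 4, against 6.56, 4.5, 11.1 and 2.61 CPM in Mlp124499 1 to 4 (log2 fold change -3.48 ± 0.46, adjusted p = 0.0164). ESE3, an ethylene-response-factor type gene, had 3.58, 3.09, 3.17 and 7.51 CPM in Mlp37347 1 to 4, against 46.6, 42.0, 77.2 and 9.30 CPM in Mlp124499 1 to 4. Mlp37347 4 and Mlp124499 4 approached each other, at 7.51 and 9.30 CPM, without crossing (log2 fold change -3.35 ± 0.60, adjusted p = 0.0439). AT1G80130, a tetratricopeptide repeat gene, and AT5G02865, a non-coding RNA, had -3.01 and -2.96. KAT1, the potassium channel of guard cells, and MYB7, a repressor of phenylpropanoid genes, were named after their values were seen. KAT1 had 30.4, 28.5, 27.0 and 26.1 CPM in Mlp37347 1 to 4, against 98.0, 94.2, 157 and 108 CPM in Mlp124499 1 to 4 and a log2 fold change of -2.03 ± 0.21 (adjusted p = 0.00544), and MYB7 had -2.88 ± 0.29 (adjusted p = 0.00544). KAT1 was lost without Mlp37347 2 or 3 (highest adjusted p = 0.0604), MYB7 without Mlp37347 3 (0.0549), and RTFL18, CIPK25, ESE3, MDP40, AT1G80130 and AT5G02865 without any 1 of Mlp37347 1 to 3, with adjusted p up to 0.176 for ESE3.

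Of the cold-response genes COR15A alone passed the test over all 8 libraries, and most of the others passed once the libraries numbered 4 were left out. COR15A (AT2G42540), a chloroplast protein that protects membranes on freezing, had 28.5, 33.3, 30.9 and 71.2 CPM in Mlp37347 1 to 4, against 1073, 771, 1955 and 184 CPM in Mlp124499 1 to 4. The highest Mlp37347 library, number 4, and the lowest Mlp124499 library, also number 4, came closest (log2 fold change -4.60 ± 0.70, adjusted p = 0.0246). The call was lost without any 1 of Mlp37347 1 to 3 and Mlp124499 1 to 3, with adjusted p up to 0.119. Its tandem copy COR15B had 23.7, 21.4, 22.7 and 43.2 CPM in Mlp37347 1 to 4, against 412, 307, 914 and 23.4 CPM in Mlp124499 1 to 4. There Mlp124499 4 fell among the Mlp37347 values, and the log2 fold change of -3.90 ± 0.87 did not pass (adjusted p = 0.0826). COR15A and COR15B are similar and COR15B has an annotated gene on the other strand, so both values carry some uncertainty. GOLS2, an enzyme of protective raffinose sugars, had 1.33, 1.13, 0.793 and 9.46 CPM in Mlp37347 1 to 4, against 28.9, 23.8, 58.5 and 24.4 CPM in Mlp124499 1 to 4, without overlap (log2 fold change -3.47 ± 0.79, adjusted p = 0.0855).

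The CBF genes upstream of these overlapped between the lines. CBF1 had 0.282, 1.72, 0 and 12.7 CPM in Mlp37347 1 to 4, against 7.98, 8.60, 13.5 and 2.80 CPM in Mlp124499 1 to 4 (log2 fold change -1.20 ± 1.15, adjusted p = 0.668). CBF3 had 0.443, 0.785, 0.317 and 14.6 CPM in Mlp37347 1 to 4, against 12.9, 12.7, 24.3 and 4.78 CPM in Mlp124499 1 to 4 (log2 fold change -1.82 ± 1.11, adjusted p = 0.475). In both, Mlp37347 4 was within the Mlp124499 range and the other 3 Mlp37347 libraries were under it. CBF2 had -1.02 ± 0.76 (adjusted p = 0.566). These 3 tandem copies share sequence, so single values are uncertain. Of the 32 cold and dehydration genes tested, 1 fell and 0 rose, against 0.567% and 0.275% of all genes. A negative log2 fold change was held by 29, and the median was -1.21. With both libraries numbered 4 left out, 29 fell and 0 rose (median -2.84), without Mlp37347 4 alone 24 fell, and without Mlp124499 4 alone 2 fell. Over all genes, 18.4% fell in the first of these fits, 7.88% in the second and 254 of 18618 in the third. With Mlp37347 4 as the sole library of its line, 0 passed and the median was 0.09. The list means were -1.80, -1.29, -1.87 and 1.08 in Mlp37347 1 to 4, against 1.23, 1.12, 1.9 and -0.37 in Mlp124499 1 to 4, on the log2 scale relative to the mean of 8.

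COR15A and GOLS2 carry the letters of the CBF recognition core, CCGAC, close to their starts, which is why their upstream 250 bases are printed, as above, with motif letters in capitals. The window of COR15A is chr2:17712331-17712580, minus strand, and that of GOLS2 is chr1:21207287-21207536, plus strand (TAIR10.1). In COR15A the core begins 142 bases before the start, as its reverse complement, and again 79 bases before it, and the G-box CACGTG begins 28 bases before the start. In GOLS2 the core begins 96 bases before the start, as its reverse complement.
COR15A: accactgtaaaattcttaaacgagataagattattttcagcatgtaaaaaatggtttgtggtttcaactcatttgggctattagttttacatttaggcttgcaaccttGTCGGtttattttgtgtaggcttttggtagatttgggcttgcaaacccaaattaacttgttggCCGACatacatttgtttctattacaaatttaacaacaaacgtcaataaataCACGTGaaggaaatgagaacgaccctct
GOLS2: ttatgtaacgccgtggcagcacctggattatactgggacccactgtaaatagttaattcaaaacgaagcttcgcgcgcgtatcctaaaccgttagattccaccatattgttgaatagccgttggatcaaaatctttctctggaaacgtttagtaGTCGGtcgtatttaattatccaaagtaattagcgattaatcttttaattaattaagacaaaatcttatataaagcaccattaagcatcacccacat
Motifs were counted on both strands in windows of 250 bases before to 50 after the start of all 18512 genes tested. CCGAC was in 16.4% of all windows, in 15.7% of the 51 higher genes, in 21.0% of the 105 lower genes and in 31.2% of the 32 cold genes. The G-box CACGTG was in 5.88% of the higher genes, 8.57% of the lower genes and 25.0% of the cold genes, against 8.92% of all. The W-box, TTGACC or TTGACT, which WRKY factors bind, was in 39.2% of the higher and 24.8% of the lower genes, against 32.4% of all. The evening element AAAATATCT was in 5.88% of the higher and 5.71% of the lower genes, against 3.06% of all and 34.5% of the 29 clock genes, and the CCA1 site AAAAATCT in 5.88% and 6.67% of them, against 8.19% of all. Among the 29 auxin genes, 20.7% held CCGAC, 13.8% CACGTG and 34.5% the W-box. These are descriptions of letters and not of binding.

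Clock genes gave no call between the lines, and libraries of each line lay far apart. CCA1 (AT2G46830), a repressor that peaks at dawn, had 40.9, 39.9, 43.4 and 137 CPM in Mlp37347 1 to 4, against 56.4, 64.2, 47.2 and 400.4 CPM in Mlp124499 1 to 4. Mlp37347 4 and Mlp124499 4 were each several times above the other libraries of their line, and the lines overlapped (log2 fold change -1.13 ± 0.76, adjusted p = 0.523). LHY, its partner, had 20.9, 18.3, 22.9 and 92.3 CPM in Mlp37347 1 to 4, against 80.1, 89.9, 64.6 and 462 CPM in Mlp124499 1 to 4 and did the same (log2 fold change -2.18 ± 0.79, adjusted p = 0.233). PRR5 (AT5G24470), an afternoon repressor, had 38.4, 59.2, 38.6 and 191 CPM in Mlp37347 1 to 4, against 62.9, 62.9, 57.9 and 1.72 CPM in Mlp124499 1 to 4. Here the libraries numbered 4 went opposite ways, up in Mlp37347 and down in Mlp124499 (log2 fold change 0.82 ± 0.88, adjusted p = 0.71). FKF1, a blue-light sensor of the flowering pathway, had 1.97, 3.24, 3.01 and 35.0 CPM in Mlp37347 1 to 4, against 24.9, 21.8, 23.9 and 0.0637 CPM in Mlp124499 1 to 4, with the same split of the libraries numbered 4. PRR9, PRR7, TOC1, GI, ELF4 and GRP7 overlapped as well, with log2 fold changes of -0.99, -0.23, 0.28, 0.21, -1.44 and -0.83. PRR5, TOC1 and GI turned negative without Mlp37347 4, at -0.03, -0.61 and -0.29, and CCA1, TOC1 and GI changed sign without Mlp124499 4, to 0.23, -0.03 and -0.10.

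LUX, CHE and LNK1 were the clock genes with no overlap. They are 2 higher and 1 lower of 29 genes, near the 5% and 6.06% of all genes. LUX (AT3G46640), the DNA-binding part of the evening complex, had 20.4, 22.2, 19.7 and 35.7 CPM in Mlp37347 1 to 4, against 8.60, 11.7, 14.2 and 3.38 CPM in Mlp124499 1 to 4 (log2 fold change 1.38 ± 0.40, adjusted p = 0.155). CHE, a repressor of CCA1, had 0.61 ± 0.16 (adjusted p = 0.12). LNK1, a coactivator, had -1.07 ± 0.27 (adjusted p = 0.108). Of 12 morning genes and 17 day and evening genes tested, 0 passed in edgeR, against 0.843% of all genes. An unadjusted p under 0.05 was reached by 2 lower morning genes and by 2 higher day and evening genes, and DESeq2 called 1 lower and 2 higher. The 4 of 29 genes at that unadjusted p are 13.8%, against 15.8% of all genes. DESeq2 called 3.11% of all genes lower and 2.75% higher. Medians were -0.43 and 0.05. In the fit lacking both libraries numbered 4, 7 morning genes fell and 0 rose, and 11 day and evening genes fell and 2 rose. Over all genes, 18.4% fell and 18.8% rose in that fit. The mean of the morning list, on the log2 scale relative to the mean of 8, was -0.74, -0.81, -0.78 and 1.05 in Mlp37347 1 to 4, against -0.05, 0.11, -0.19 and 1.41 in Mlp124499 1 to 4. The day and evening list stood at -0.45, -0.34, -0.53 and 1.24 in Mlp37347 1 to 4, against 0.59, 0.60, 0.57 and -1.68 in Mlp124499 1 to 4. The part of these differences in the cold, auxin and other results was not tested.

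**Figure D4:**
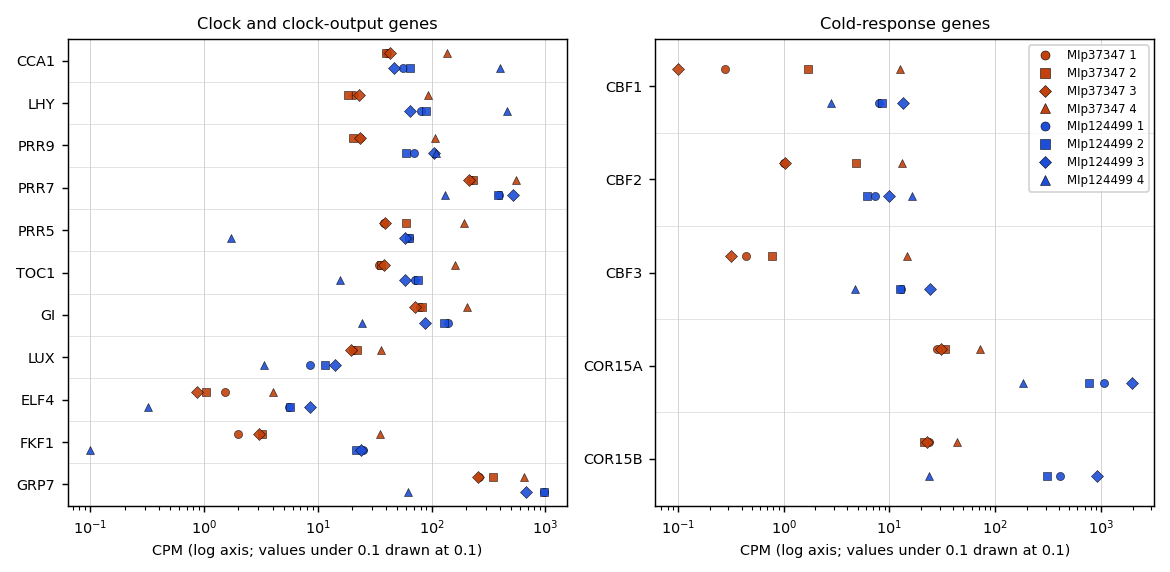
CPM on a log axis of clock and clock-output genes (left) and of CBF and COR15 genes (right), one symbol per library, orange for Mlp37347 and blue for Mlp124499. Triangles are the libraries numbered 4, which lie far from the other symbols of their line for CCA1, LHY, PRR5 and FKF1, and COR15A is the cold-response gene shown without overlap.

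Of the 15 iron genes tested 3 were called, against 0.843% of all genes. Of 17 listed iron-deficiency genes 9 passed the filter on low counts, of which 2 rose and 0 fell (median 1.06), and of 6 iron-storage genes 1 fell and 0 rose (median -0.73). BTS (AT3G18290), a ubiquitin ligase that restrains the iron-deficiency response, had 170.0, 179, 199.8 and 158 CPM in Mlp37347 1 to 4, against 87.0, 84.7, 66.4 and 63.2 CPM in Mlp124499 1 to 4. Its lines did not overlap (log2 fold change 1.23 ± 0.19, adjusted p = 0.0243). FRO3, a mitochondrial ferric reductase gene, had 75.8, 74.2, 71.9 and 94.0 CPM in Mlp37347 1 to 4, against 41.8, 42.6, 36.7 and 30.5 CPM in Mlp124499 1 to 4 (log2 fold change 1.06 ± 0.18, adjusted p = 0.0347). A gene on the other strand overlaps FRO3. AT1G47395, on the same list, had 8.85, 10.5, 12.9 and 0.442 CPM in Mlp37347 1 to 4, against 0.177, 0.482, 0 and 1.66 CPM in Mlp124499 1 to 4. Only Mlp37347 4 fell within the Mlp124499 range, and the gene did not pass (log2 fold change 3.73 ± 1.05, adjusted p = 0.147). FRO2, a ferric reductase gene, was the 1 tested member of that list with a negative log2 fold change (-0.67). It had 3.26, 3.78, 3.33 and 1.77 CPM in Mlp37347 1 to 4, against 5.5, 4.1, 5.91 and 4.01 CPM in Mlp124499 1 to 4. Its values did not overlap between the lines, and it did not pass. The storage gene that fell was AT1G76800, of the vacuolar iron transporter family, with 3.94, 4.27, 3.57 and 6.19 CPM in Mlp37347 1 to 4, against 15.2, 15.6, 22.0 and 8.15 CPM in Mlp124499 1 to 4 (log2 fold change -1.77 ± 0.32, adjusted p = 0.0439). AT1G21140, of the same family, had -0.89 ± 0.34 (adjusted p = 0.261), and the ferritin gene FER4 had -1.02 ± 0.52 (adjusted p = 0.384). YSL3, a transporter of metal chelates named after its values were seen, had 1.29 ± 0.24 (adjusted p = 0.0441). Counted over the same 9 and 6 genes, a choice made after the data were seen, 6 iron-deficiency genes rose and 4 storage genes fell without both libraries numbered 4, and 5 rose and 4 fell without Mlp37347 4. Over all genes, 18.8% rose and 18.4% fell in the first of these fits, and 6.9% and 7.88% in the second. With Mlp37347 4 as the sole library of its line 0 passed on either list, and the medians were 0.18 and 0.27, the second opposite in sign to the fit of all 8. The mean of the iron-deficiency list was 0.80, 0.91, 1.03 and -0.57 in Mlp37347 1 to 4, against -0.64, -0.67, -1.02 and 0.15 in Mlp124499 1 to 4. The storage list stood at -0.87, -0.84, -1.14 and 0.61 in Mlp37347 1 to 4, against 0.96, 0.70, 0.32 and 0.26 in Mlp124499 1 to 4. Mlp37347 4 lay on the Mlp124499 side in both lists. The called genes named here, YSL3 included, lost their calls without any 1 of Mlp37347 1 to 3 and Mlp124499 1 to 3, with adjusted p up to 0.18 for AT1G76800 and 0.142 for FRO3.

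Senescence genes gave 1 call. SAG20 (AT3G10985) rose, with 153, 129.7, 140.1 and 135 CPM in Mlp37347 1 to 4, against 63.2, 75.3, 70.7 and 61.0 CPM in Mlp124499 1 to 4, and the libraries of each line were close together (log2 fold change 1.04 ± 0.16, adjusted p = 0.0256). It was at 1.05 without both libraries numbered 4 and at 1.0 for Mlp37347 4 alone, and the call was lost without any 1 of Mlp37347 1 to 3 and Mlp124499 1 to 3 (adjusted p up to 0.133). The list members SAG13 and WRKY6 had 1.5 ± 0.49 and 0.65 ± 0.26 (adjusted p = 0.195 and 0.279). Other members went the other way: of the 11 tested, 5 had a positive and 6 a negative log2 fold change, the lowest -2.44. Of the 11, 1 rose and 0 fell (median -0.33), against 0.275% and 0.567% of all genes. The fit without both libraries numbered 4 had 3 that rose and 6 that fell, against 18.8% and 18.4% of all genes.

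Genes that darkness and sugar starvation induce were high in Mlp37347 4. All 8 tested had a positive log2 fold change (median 1.60), but 0 passed in edgeR, with 3 at an unadjusted p under 0.05 and 2 called by DESeq2. Of all genes, 7.15% were higher at that unadjusted p and DESeq2 called 2.75% higher. DIN10 (AT5G20250), a raffinose-family enzyme gene, had 1819, 1833, 1683 and 4532 CPM in Mlp37347 1 to 4, against 620.4, 734, 527 and 259.7 CPM in Mlp124499 1 to 4. Its lines did not overlap, and its adjusted p was 0.0554 (log2 fold change 2.2 ± 0.43). DIN2, a glucosidase gene, had 2.29, 2.16, 2.54 and 55.6 CPM in Mlp37347 1 to 4, against 0.709, 3.54, 1.67 and 1.85 CPM in Mlp124499 1 to 4, so that its log2 fold change of 2.99 ± 1.17 rests on Mlp37347 4. GDH2, a glutamate dehydrogenase subunit gene, had 199, 234, 225 and 881 CPM in Mlp37347 1 to 4, against 142, 159, 157 and 64.2 CPM in Mlp124499 1 to 4 (log2 fold change 1.56 ± 0.53). The list mean was 3.11 in Mlp37347 4, against -0.81 to -0.67 in the other 3 of its line and -0.96 to 0.31 in Mlp124499. Without both libraries numbered 4 the median was -0.48, with 2 higher and 4 lower, against 18.8% and 18.4% of all genes.

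Immune lists gave no call. Of all genes tested 0.843% were called, so 0 calls do not set these lists apart. DESeq2 called 2.75% of all genes higher and 3.11% lower. Of 26 salicylic acid genes tested, 0 passed in edgeR, 2 higher and 2 lower had an unadjusted p under 0.05, and DESeq2 called 1 higher. At 15.4%, the share at an unadjusted p under 0.05 was near the 15.8% of all genes. PR1 (AT2G14610), a marker of salicylic acid signalling, had 25.2, 25.7, 34.5 and 1.94 CPM in Mlp37347 1 to 4, against 12.2, 9.73, 16.5 and 8.28 CPM in Mlp124499 1 to 4. Mlp37347 4 was the lowest of the 8 libraries and the other 3 Mlp37347 libraries the highest (log2 fold change 0.91 ± 0.64, adjusted p = 0.541). PBS3, an enzyme of salicylic acid synthesis, had -0.72 ± 0.35, WRKY70, a regulator, -0.88 ± 0.32, and UGT74F2, which conjugates salicylic acid, 0.94 ± 0.27, of which only UGT74F2 had no overlap. Of 25 pattern-triggered immunity genes, 0 passed, with 4 higher and 3 lower at an unadjusted p under 0.05 and 2 higher in DESeq2. Here the unadjusted share was above the 15.8% of all genes. The values did not overlap for 5 of the 25, all higher, against 5% of all genes. Among these 5, the immune kinase genes SOBIR1, BAK1 and BIK1 had all Mlp37347 values above all Mlp124499 values. BAK1, a co-receptor of pattern receptors, had 76.1, 73.7, 75.2 and 116 CPM in Mlp37347 1 to 4, against 51.8, 55.8, 57.9 and 46.6 CPM in Mlp124499 1 to 4 (log2 fold change 0.68 ± 0.20, adjusted p = 0.153). SOBIR1 had 0.72 ± 0.19 and BIK1 0.79 ± 0.26. Among 29 jasmonate and ethylene genes, 0 passed, 8 higher and 2 lower had an unadjusted p under 0.05, and DESeq2 called 5 higher and 1 lower. This unadjusted share was also above that of all genes, of which 7.15% were higher and 8.6% lower. PDF1.2A (AT5G44420), a defensin gene, had 1.25, 0.294, 1.59 and 3.36 CPM in Mlp37347 1 to 4, against 10.6, 9.24, 8.41 and 5.42 CPM in Mlp124499 1 to 4, without overlap (log2 fold change -2.42 ± 0.57, adjusted p = 0.0938). PEN3 (AT1G59870), a transporter in defence against fungi, had 1180.0, 1207, 1121 and 1233 CPM in Mlp37347 1 to 4, against 678, 697, 678 and 638 CPM in Mlp124499 1 to 4. Its lines did not overlap, and its adjusted p was 0.0538 (log2 fold change 0.82 ± 0.16). Medians of the salicylic acid, pattern-triggered immunity and jasmonate lists were -0.08, 0.18 and 0.06. Without both libraries numbered 4 they gave 9, 11 and 8 higher genes and 1, 4 and 7 lower genes. In that fit 18.8% of all genes were higher and 18.4% lower.

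Photosynthesis, secondary metabolism and cell division gave no call, against 0.843% of all genes tested. Over all genes, 7.15% were higher and 8.6% lower at an unadjusted p under 0.05, and DESeq2 called 2.75% and 3.11%. Of 43 photosynthesis genes 0 passed (9 higher and 0 lower at an unadjusted p under 0.05, 2 higher in DESeq2), and the median was 0.27. LHCB4.1, an antenna protein gene, had 4781, 4760.0, 4520.0 and 4606 CPM in Mlp37347 1 to 4, against 3682, 3317, 2434 and 3136 CPM in Mlp124499 1 to 4, without overlap (log2 fold change 0.57 ± 0.18, adjusted p = 0.187). PETE1 and RBCS3B had 1.0 ± 0.34 and 0.84 ± 0.31. Of 14 chlorophyll genes 0 passed (2 higher and 2 lower unadjusted, 1 and 1 in DESeq2, median 0.45). PORB, a protochlorophyllide reductase gene, had 2088, 2231, 1956 and 756 CPM in Mlp37347 1 to 4, against 1441, 1164, 1089 and 288 CPM in Mlp124499 1 to 4, with the lowest value of each line in library 4 (log2 fold change 0.82 ± 0.49, adjusted p = 0.467). PORA, HEME2 and GUN4, of the same pathway, had -2.11, 0.91 and -0.66. For aliphatic glucosinolates, sulfur-containing defence compounds, 0 of 16 passed (5 higher unadjusted, 1 in DESeq2, median 1.24). MAM1, which elongates their side chains, had 457, 517, 497 and 42.5 CPM in Mlp37347 1 to 4, against 154, 124, 136 and 106 CPM in Mlp124499 1 to 4. Mlp37347 1 to 3 were the highest and Mlp37347 4 the lowest of the 8 libraries (log2 fold change 1.54 ± 0.60, adjusted p = 0.263). IMD1 and MAM3 had 2.41 and 1.89. Of 14 flavonoid genes 0 passed (4 higher and 1 lower unadjusted, 1 higher in DESeq2, median 0.62). DFR, an anthocyanin enzyme gene, had 51.1, 44.3, 50.6 and 0.265 CPM in Mlp37347 1 to 4, against 0.887, 0.723, 0.909 and 4.65 CPM in Mlp124499 1 to 4 (log2 fold change 4.31 ± 1.16, adjusted p = 0.132). Mlp37347 1 to 3 were again the highest and Mlp37347 4 the lowest. LDOX, the next enzyme, had 3.03 and the regulator PAP1 -2.04. Of 27 cell-cycle genes 0 passed (3 higher unadjusted, 1 in DESeq2, median 0.58), and the mitotic genes AUR1, CYCB2;4 and KN had 1.16, 0.67 and 0.66. Without both libraries numbered 4, 21 photosynthesis, 8 chlorophyll, 16 aliphatic glucosinolate, 10 flavonoid and 16 cell-cycle genes were higher, and 0, 1, 0, 1 and 0 lower. In that fit 18.8% of all genes were higher and 18.4% lower. For Mlp37347 4 alone the medians were 0.14 for photosynthesis, -0.30 for chlorophyll, -2.88 for aliphatic glucosinolates, -1.53 for flavonoids and -0.74 for cell cycle.

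**Figure D5:**
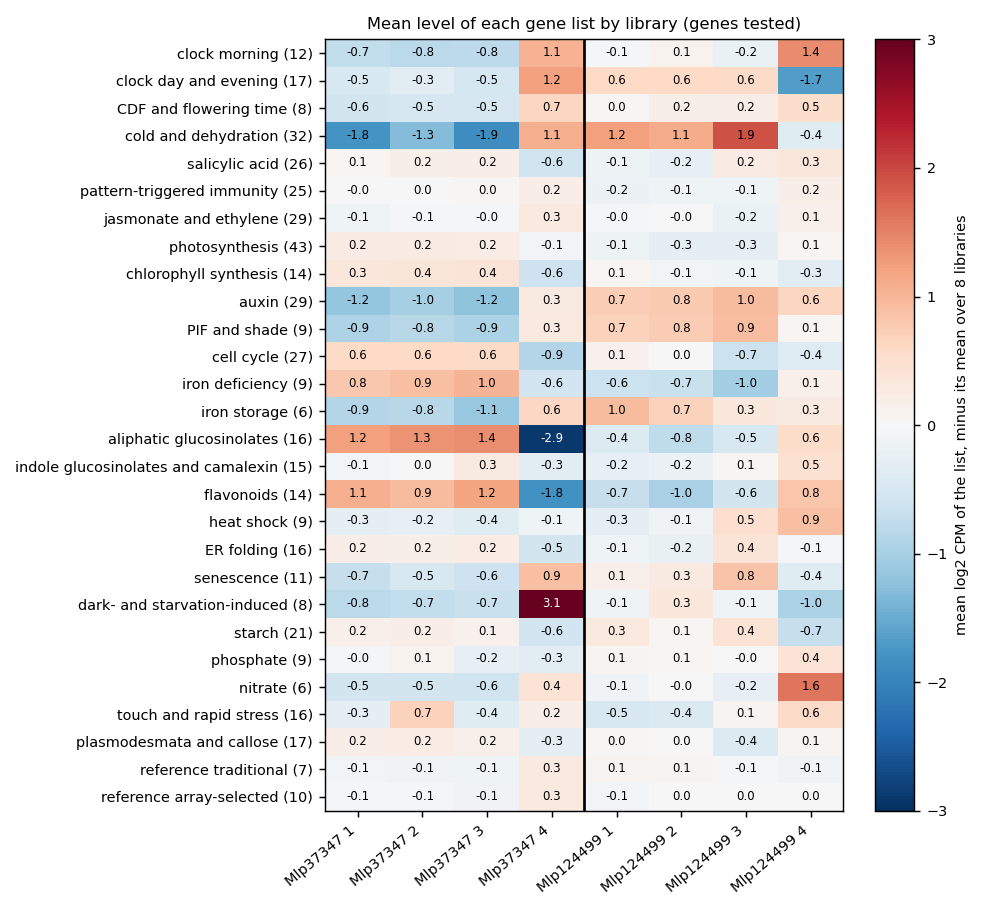
Mean log2 CPM of the tested members of 28 gene lists (rows, number of genes in brackets) in each library (columns), as the difference from the list's mean over 8 libraries, from blue (lower) to red (higher). Mlp37347 4 differs from the other 3 libraries of its line most for aliphatic glucosinolates, flavonoids and dark- and starvation-induced genes.

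The other lists had no call and smaller medians or few members. Medians were -0.47 for flowering-time genes (8 tested), 0.04 for indole glucosinolates and camalexin (15), -0.71 for heat shock (9), 0.17 for protein folding in the endoplasmic reticulum (16) and 0.01 for starch (21). They were -0.07 for phosphate (9), 0 for nitrate (6), 0.27 for touch and rapid stress (16) and 0.28 for plasmodesmata and callose (17). The leaf, root and flower markers had 4, 1 and 2 genes tested, with medians of 0.55, 0.42 and 0.03, and 0 seed markers were tested. Over the 22 lists without a call, 51 of 365 members were higher and 22 lower at an unadjusted p under 0.05, and DESeq2 called 21 and 7. That is 20.0% of the members at an unadjusted p under 0.05, against 15.8% of all genes tested. DESeq2 called 2.75% of all genes higher and 3.11% lower.

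The series title concerns reference genes, and none of 17 commonly used ones differed past the threshold between these lines. Of all genes tested 0.843% did, so 0 of 17 does not set these genes apart. In edgeR 0 of 7 traditional and 0 of 10 array-selected genes passed, with 2 and 0 at an unadjusted p under 0.05 and 0 in DESeq2. That unadjusted p was reached by 15.8% of all genes. Their median absolute log2 fold change was 0.17, against 0.28 over all genes, and 14 of 17 were within 0.5. GAPC1, a glycolytic enzyme gene, had 523, 559.9, 539.7 and 254 CPM in Mlp37347 1 to 4, against 297, 271, 186 and 334 CPM in Mlp124499 1 to 4 (log2 fold change 0.79 ± 0.29, adjusted p = 0.247), the highest of the 17. Mlp37347 4 was under its line and within the Mlp124499 range. TUB6, a tubulin gene, had -0.64 ± 0.31, the lowest, and AT5G60390, an elongation factor gene, 0.52 ± 0.23. Among the array-selected genes PP2AA3, a phosphatase subunit gene, had 0.30 ± 0.19, PTB1 0.27 ± 0.22 and AT4G26410 0.22 ± 0.21. Without both libraries numbered 4, 2 traditional genes were higher and 3 lower, and 1 array-selected gene was higher and 1 lower. In that fit 18.8% of all genes were higher and 18.4% lower.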

How the data were processed

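The authors trimmed paired reads of 100 nt with Trimmomatic, aligned them to TAIR10 with TopHat2 2.0.14 and counted read pairs over Ensembl Plants transcripts with GenomicAlignments in union mode under R 3.2.5, as stated in the design text of the series and, for tool versions, per the submitters' processing notes. The deposited values are raw counts per locus, 1 table per library, and the authors' deposited read table gives reads and mate inner distance (other values) per library. The sources used here do not give strand use or the handling of reads with several alignments. The count tables list 32833 loci, and the 285 organelle loci are 0 in all 12 libraries.

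From the counts of 8 libraries, low loci were removed with filterByExpr, libraries were scaled by TMM, and the 2 lines were compared with edgeR 4.0.16 (quasi-likelihood test, R 4.3.3, Benjamini-Hochberg adjustment over 18512 genes, threshold 0.05). Every adjusted p is from this test unless another tool is named, log2 fold changes are Mlp37347 over Mlp124499, and their errors are standard errors. List means use log2 CPM with a prior count of 2. Alternatives used limma 3.58.1, DESeq2 1.42.0, other scalings and filters, and fits without libraries. The pipeline was tested on simulated counts in which no library lay apart from its line, so that test does not cover the spread seen in these data. Promoters were read from the TAIR10.1 genome, whose locus tags matched 99.1% of loci.

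The members and lists were chosen with earlier results of these data known. Named were the 10 called genes of highest and of lowest fold change with at least 1 CPM and no overlap, the members of smallest p in the lists, a fixed set of clock, cold and defence genes, and loci with at least 10 counts in each library of one line and at most 3 in the other, beside those said to be named after their values were seen. The Control libraries entered only the fit with 12 libraries.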

Additional observations from a re-analysis of the deposited data

Results flagged for a closer look

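The CPM of 39 genes and the total count were examined in each line, and 1 library lay far from the other 3 in 23 of 80 such groups of 4, by Dixon's criterion, which chance meets in about 1 of 20 groups. Of these, 17 were Mlp37347 4 and 6 were Mlp124499 4, and no library numbered 1, 2 or 3 was singled out.

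Among the genes with the largest differences, Mlp37347 4 was the high library of its line for AT1G50040 (30.1 CPM, against 11.9 to 13.4 CPM in the other 3), ERD5 (2170 against 744 to 797), COR15A (71.2 against 28.5 to 33.3), PIL1 (5.21 against 0.634 to 1.08) and ESE3 (7.51 against 3.09 to 3.58). Mlp124499 4 was the high one for SLAH3 (25.9 CPM, against 12.9 to 14.5) and PIL1 (50.6 against 25.3 to 28.9).

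Clock genes made up most of the rest. Mlp37347 4 stood above its line for CCA1 (137 CPM, against 39.9 to 43.4), LHY (92.3 against 18.2 to 22.9), PRR9 (107 against 20.6 to 23.4), PRR7 (556 against 215 to 230) and PRR5 (191 against 38.4 to 59.2). It did so too for TOC1 (159 against 34.7 to 37.9), GI (206 against 70.9 to 82.2), LUX (35.7 against 19.7 to 22.2) and FKF1 (35 against 1.97 to 3.24). Mlp124499 4 stood above its line for CCA1 (400 CPM, against 47.2 to 64.2) and LHY (462 against 64.6 to 89.9), and under it for PRR5 (1.72 against 57.9 to 62.9) and FKF1 (0.0637 against 21.8 to 24.9). The cold genes COR15B (43.2 against 21.4 to 23.7), CBF1 (12.7 against 0 to 1.72) and CBF3 (14.6 against 0.317 to 0.785) were again high in Mlp37347 4. The labels do not give the hour of harvest or a batch for any library.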

How the results depend on the processing

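The count of higher and lower genes was 51 and 105. It was 509 and 576 with DESeq2, 4720 and 5566 with limma voom and sample weights, 210 and 303 with the 12 libraries in 1 fit, 949 and 592 with the mate inner distance as covariate, 4 and 10 at a threshold of 0.01, and 8 and 16 when a fold of 1.5 was tested. Total-count scaling gave 208 lower genes and array-selected reference genes 173, with 17.1% and 20.3% of the calls higher, against 32.7%. Those scalings moved the median of all genes to -0.12 and -0.07. Leaving out 1 library gave 3 to 1291 higher and 6 to 1473 lower genes, and leaving out both libraries numbered 4 gave 3479 and 3406. Summing the close libraries gave 0 and 0 (744 at an unadjusted p under 0.05), and Mlp37347 4 alone gave 6 and 1, on the assumption that this library varies like the Mlp124499 libraries. The other alternatives kept both counts within 1.5 times.

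With the replicate block, 0 and 0 genes passed in edgeR and 2039 had an unadjusted p under 0.05. The numbers were not taken to pair the libraries, because the labels do not say that they mark a shared batch. Deviations of same-numbered libraries from their line means correlated at -0.40 to -0.09, and 0 of 4 correlated best with their own number. An outlying library in each line shapes the deviations of all others, so this check cannot decide whether the numbers pair the libraries.

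Over 115 named genes and 2645 refitted values, 1863 kept direction and side of the threshold, 513 lost it, 202 passed it and 67 changed sign. In those 67 the log2 fold changes were as follows; the cause was not tested. With Mlp37347 4 alone they were PRR9 0.32, PRR7 0.64, FKF1 1.0, CBF1 0.64, CBF2 0.41, CBF3 0.10, PR1 -2.57, PORB -0.39, PETE1 -0.30, HEME2 -0.36, AUR1 0.00, CYCB2;4 -0.10, KN -0.24, AT1G47395 -0.42, FER4 0.25, IMD1 -2.56, MAM1 -1.61, MAM3 -2.39, DFR -2.73, LDOX -3.89, GAPC1 -0.09, AT5G60390 -0.09 and AT4G26410 -0.08. With the covariate they were CCA1 0.01, PRR9 0.64, PRR7 0.90, ELF4 0.05, FKF1 1.61, GRP7 0.11, CBF1 1.45, CBF2 0.82, CBF3 0.97, PR1 -2.88, PORB -0.57, PETE1 -0.51, HEME2 -0.61, AUR1 -0.26, CYCB2;4 -0.24, KN -0.41, AT1G47395 -1.08, FER4 0.47, IMD1 -3.27, MAM1 -2.05, MAM3 -2.91, DFR -3.55, LDOX -4.51, SAG13 -0.03, GAPC1 -0.29, AT5G60390 -0.23 and AT4G26410 -0.16. They were PRR7 0.17 and FKF1 0.25 with close libraries summed, PRR5 -0.41, TOC1 -0.96, GI -0.68 and PTB1 -0.11 with voom weights and TOC1 -0.08 with the replicate block. They were PRR5 -0.39, TOC1 -0.88 and GI -0.57 without both libraries numbered 4, PRR5 -0.03, TOC1 -0.61 and GI -0.29 without Mlp37347 4, CCA1 0.23, TOC1 -0.03 and GI -0.10 without Mlp124499 4 and PRR7 0.01 without Mlp124499 3. For these 5 genes, leaving out 1 library at a time gave -1.78 to 0.23 for CCA1, -0.69 to 0.01 for PRR7, -0.03 to 1.06 for PRR5, -0.61 to 0.49 for TOC1 and -0.29 to 0.46 for GI. Depth of 10813288 to 24483245 counts limits genes under about 1 CPM, where single reads decide the value.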
